A study of Mus musculus with 6 samples.

Results

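Ccl3, Ccl4 and Ccl9 encode 3 CC chemokines, small secreted proteins known also as MIP-1alpha, MIP-1beta and MIP-1gamma. Among 13278 genes they were chosen by their measured level in the 2 libraries of HSC2 cells, where they were taken to be high (for Ccl9 this held of 1 of the 2), so those levels are given as a description and without a test. All 3 genes have a row in the deposited tables, and whole counts were recovered for each of them and for 11965 genes in all. CC chemokines carry a pair of adjacent cysteines near the start of the mature protein and act on G protein-coupled receptors of the Ccr family. Ccl3 and Ccl9 both bind Ccr1. Activated macrophages and lymphocytes are their classical sources, and Ccl3 is also known as an inhibitor of the proliferation of early haematopoietic progenitors.

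Blood stem and progenitor cells sorted from C57BL/6 mice were sequenced one by one, 497 in all, in 6 libraries with 1 library per group. The gates were named by the labels with CD201, the protein C receptor encoded by Procr, and with CD48, a surface receptor of the SLAM family. A first library held CD201-CD48- HSC1 and CD201-CD48- HPC1 cells (76 cells, bone marrow). The HSC1 library held CD201+CD48- HSC1 and CD48+ HSC1 cells (84 cells), and the HPC1 library held CD201+CD48- HPC1 and CD48+ HPC1 cells (82 cells). Both of these were labelled spleen, although the title of the series speaks of bone marrow. The MPP2-containing library held CD201-CD48- HPC1, MPP2, CD48+ HSC1 and CD48+ HPC1 cells (80 cells, bone marrow). These 4 libraries were labelled polyA RNA from mice of 8 to 10 weeks. The CD48+ HSC2/MPP4 library combined MPP4 cells with CD48+ HSC2 (89 cells), and the CD48- HSC2 library held CD48-CD201+ HSC2 and CD48-CD201- HSC2 cells (86 cells). Both were bone marrow, were labelled total RNA from mice of 8 weeks, and were deposited as tables of their own. The HSC2 gates therefore cannot be told apart from the deposit, the RNA label and the age label. Cells carry a library name and a running number, so no cell could be assigned to a gate within its library, and how many mice were used is not given in the sources used here.

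Depth differed between the libraries, with 6489907 to 15019501 counts in the first 4, 3924057 in CD48+ HSC2/MPP4 and 2778858 in CD48- HSC2. The median per cell ran from 63093 to 145497 counts in the first 4 libraries and was 35977 and 23540 in the HSC2 libraries. The gate genes followed the labels. Cd48 was at 1.62 counts per 1000000 (CPM) in the CD201-CD48- library and at 9.36 CPM in CD48- HSC2, where 3 of 86 cells held all of it, against 33.9 to 173 CPM in the libraries with CD48+ gates. Procr was at 115 to 133 CPM in CD48- HSC2 and HSC1 and at 16.4 to 23.9 CPM in the CD201-CD48-, MPP2-containing and CD48+ HSC2/MPP4 libraries. All 15 stem cell markers were counted in every library, except Slamf1, which was at 0 in CD48- HSC2.

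The 3 genes lie in the chemokine cluster of chromosome 11 (GRCm38, GENCODE vM21). Ccl9 (ENSMUSG00000019122.8) spans chr11:83572919-83578636 and Ccl3 (ENSMUSG00000000982.5) spans chr11:83647844-83649355, both on the minus strand. Ccl4 (ENSMUSG00000018930.3) spans chr11:83662584-83664683 on the plus strand, and its start lies 13.2 kb from that of Ccl3. In RefSeq (GRCm38.p6), Ccl4 reaches from 83648624 to 83664683 and so overlaps Ccl3 (83647843 to 83649378) on the other strand. Whether reads were counted by strand and on which annotation is not given in the sources used here, so reads in that overlap cannot be told apart. The coding sequences are 276 bases long in Ccl3 and Ccl4 and 366 bases in Ccl9. In a global alignment Ccl3 and Ccl4 share 69.5% of aligned positions, Ccl3 and Ccl9 50.7%, and Ccl4 and Ccl9 52.2%. No run longer than 11 bases is common to the transcripts of any pair. The stretch around the adjacent cysteine codons that give the CC family its name is shown for each gene from its GENCODE transcript (bases 73 to 132 of the coding sequence in Ccl3 and Ccl4, 142 to 201 in Ccl9), with those codons in capitals.
Ccl3: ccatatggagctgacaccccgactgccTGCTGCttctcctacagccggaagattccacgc
Ccl4: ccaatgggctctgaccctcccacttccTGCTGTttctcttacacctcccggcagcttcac
Ccl9: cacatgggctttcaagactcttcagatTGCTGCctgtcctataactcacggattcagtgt

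Ccl3 was at 248 CPM (exact 95% Poisson interval 233 to 265; 975 counts) in CD48+ HSC2/MPP4 and at 309 CPM (289 to 331; 859 counts) in CD48- HSC2. In the other 4 libraries it was at 5.66 CPM (4.28 to 7.36) in CD201-CD48- HSC1 and HPC1, 14.8 CPM (12 to 18.1) in HSC1, 0.436 CPM (0.141 to 1.02; 5 counts) in HPC1 and 65.6 CPM (61.5 to 69.8) in the MPP2-containing library. From low to high the order was HPC1, CD201-CD48-, HSC1, MPP2-containing, CD48+ HSC2/MPP4 and CD48- HSC2, and no 2 neighbours had overlapping intervals. Such intervals cover counting error only: they leave out the spread between mice, and amplified reads are not independent molecules.

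Ccl4 was at 602 CPM (578 to 626; 2361 counts) in CD48+ HSC2/MPP4 and at 385 CPM (363 to 409; 1071 counts) in CD48- HSC2. It was at 37.3 CPM (33.6 to 41.3) in CD201-CD48- HSC1 and HPC1, 91.7 CPM (84.5 to 99.4) in HSC1, 89.8 CPM (84.4 to 95.5) in HPC1 and 105 CPM (100.3 to 111) in the MPP2-containing library. HPC1 and HSC1 could not be told apart in this order, while the intervals of all other neighbours stood apart. The place of the MPP2-containing library above both rested on 1 cell: without the top cell of each library it was at 74.0 CPM, against 79.7 in HSC1 and 79.97 in HPC1. Unlike Ccl3, whose lowest level was in HPC1, Ccl4 had its lowest level in the CD201-CD48- library.

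Ccl9 was at 173 CPM (160 to 186; 678 counts) in CD48+ HSC2/MPP4 and at 27.3 CPM (21.5 to 34.2; 76 counts) in CD48- HSC2. It was at 0.809 CPM (0.349 to 1.59; 8 counts) in CD201-CD48- HSC1 and HPC1, 20.2 CPM (16.9 to 23.95) in HSC1, 12.1 CPM (10.2 to 14.3) in HPC1 and 51.3 CPM (47.8 to 55.1) in the MPP2-containing library. On pooled counts Ccl9 in CD48- HSC2 was thus below the MPP2-containing library, and its interval overlapped that of HSC1. Its place against the MPP2-containing library depended on the measure: the mean of per-cell CPM was 43.2 against 44.8, and after thinning CD48+ HSC2/MPP4 had a log2 ratio of 1.41 over CD48- HSC2 but of 1.86 over the MPP2-containing library, which puts CD48- HSC2 above it. Ccl3 and Ccl4 had their 2 highest pooled levels in the HSC2 libraries, and Ccl9 had its highest in the one that included CD48+ HSC2 and MPP4.

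**Figure D1:**
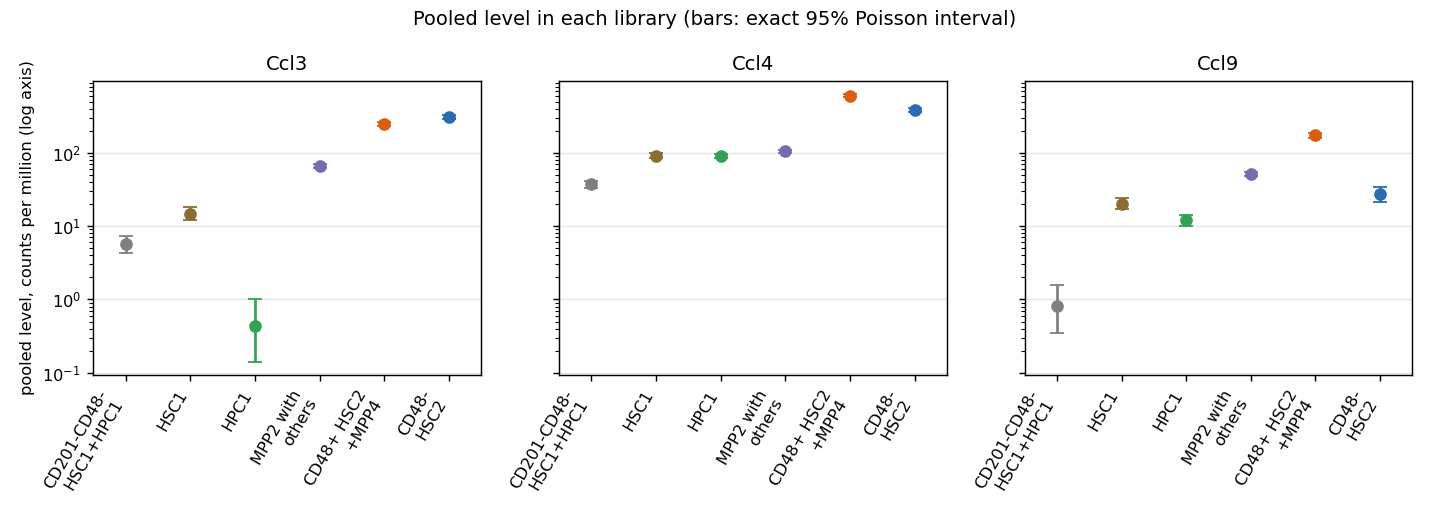
Pooled level of Ccl3, Ccl4 and Ccl9 (y axis, CPM, log scale) in each of the 6 libraries (x axis), with exact 95% Poisson intervals as bars. Ccl3 and Ccl4 are highest in both HSC2 libraries (248 to 602 CPM), while Ccl9 is at 173 CPM in CD48+ HSC2/MPP4 and at 27.3 CPM in CD48- HSC2.

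How many cells carried each gene was read after thinning every cell to 10000 counts, since depth differed. Ccl3 was counted in 39 of 81 cells (48.1%, exact Clopper-Pearson interval 36.9 to 59.5%) of CD48+ HSC2/MPP4 and in 20 of 66 cells (30.3%, 19.6 to 42.9%) of CD48- HSC2. In the other libraries it was counted in 5.33% of CD201-CD48-, 7.5% of HSC1 and 10% of MPP2-containing cells. None of 81 HPC1 cells had a thinned count, which allows a share of up to 4.45%. Without thinning the Ccl3 shares were 60.7% and 41.9% in CD48+ HSC2/MPP4 and CD48- HSC2, and 10.5%, 25%, 3.66% and 63.8% in the CD201-CD48-, HSC1, HPC1 and MPP2-containing libraries.

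Ccl4 was counted in 54 of 81 cells (66.7%, 55.3 to 76.8%) of CD48+ HSC2/MPP4 and 41 of 66 cells (62.1%, 49.3 to 73.8%) of CD48- HSC2. Its shares were 22.7% in the CD201-CD48- library, 42.5% in HSC1, 37.0% in HPC1 and 27.5% in the MPP2-containing library (62.8 to 77.5% in all 6 without thinning). Ccl9 was counted in 38 of 81 cells (46.9%, 35.7 to 58.3%) of CD48+ HSC2/MPP4 and 11 of 66 cells (16.7%, 8.62 to 27.9%) of CD48- HSC2. The Ccl9 share was 16.2% in the MPP2-containing library, close to that of CD48- HSC2, and 1.33 to 7.5% in the 3 remaining ones (7.89 to 52.8% in the 6 without thinning).

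The counts were spread unevenly over cells. In the MPP2-containing library 5 cells held 83.7% of all Ccl3 counts and the highest cell alone held 40.9%, although 51 of 80 cells had at least 1 count. In that library the 90th percentile of Ccl3 was 0.317 per 10000 counts, while the highest cell reached 22.7. In CD48+ HSC2/MPP4 the 5 highest cells held 43.7% and 14 cells reached 10 or more per 10000, and in CD48- HSC2 they held 60.8% and 11 cells reached that level. Ccl3 was therefore broader over cells in the HSC2 libraries, with top cells of 43.0 and 71.8 per 10000.

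Ccl4 reached 10 or more per 10000 in 25 cells of CD48+ HSC2/MPP4 and 10 cells of CD48- HSC2, against 0 to 2 cells in each other library. Its 5 highest cells held 38.7 to 46.3% of the counts in 5 libraries and 66.5% in the MPP2-containing library. Ccl9 rested on a single cell in HPC1, which held 76.3% of its counts there, and without that cell its HPC1 level was 2.91 CPM. In CD48+ HSC2/MPP4 the highest Ccl9 cell held 24.9%, and the level without it was 143 CPM.

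**Figure D2:**
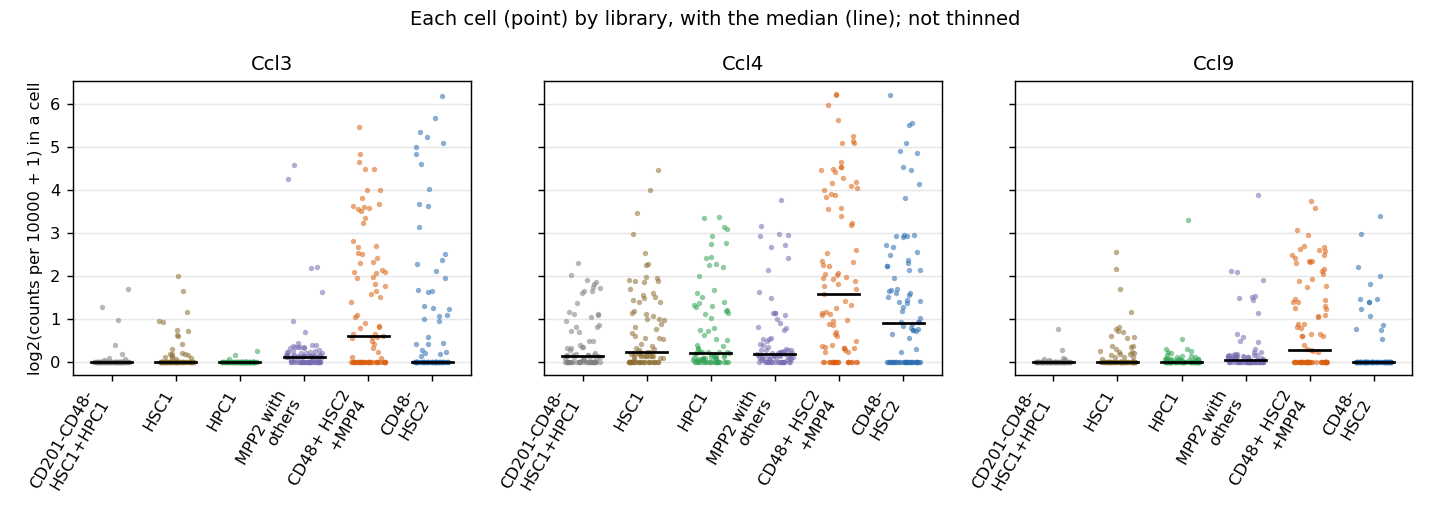
Each point is 1 cell, with log2(counts per 10000 + 1) of the gene on the y axis (not thinned), the libraries on the x axis and black lines at the medians. In the MPP2-containing library 2 cells stand far above the rest for Ccl3, whereas the cells of the HSC2 libraries fill the range up to 43.0 and 71.8 per 10000.

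Comparisons between libraries were made on log2 of pooled CPM with 10 CPM added, and a gene was counted as higher or lower when it differed at least 2-fold. With 1 library per group no test was possible. The 2 HSC2 libraries, deposited alike, gave a contrast of CD48+ HSC2 and MPP4 with CD48- HSC2 that the choice of genes did not use directly. Ccl9 had a log2 ratio of 2.29 (interval from the counts 2.02 to 2.56), 6.32 times higher in CD48+ HSC2/MPP4, and was the 1 of the 3 genes that passed 2-fold, against a background of 1.87% of recovered genes higher and 3.31% lower. The size of the Ccl9 difference depended on the weight of deep cells, with a ratio of 1.59 for the mean of per-cell CPM (150 against 43.2 CPM) and 1.41 after thinning. Ccl4 had a ratio of 0.63 (0.53 to 0.73). Ccl3 had a ratio of -0.30 (-0.43 to -0.17) on pooled counts but 0.34 as a difference of mean log2 values over cells, so its direction depended on the measure.

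CD48- HSC2 was set against CD201-CD48- HSC1 and HPC1, which are CD48- gates too, and this contrast was used in choosing the genes. The log2 ratios were 4.35 for Ccl3, 3.06 for Ccl4 and 1.79 for Ccl9, all 3 above 2-fold, beside 4.31% of recovered genes higher and 2.72% lower. In CPM these are 54.6-fold, 10.3-fold and 33.8-fold, the last against 8 counts. CD48+ HSC2/MPP4 over the MPP2-containing library, likewise used by the choice, gave 1.77 for Ccl3, 2.41 for Ccl4 and 1.58 for Ccl9, beside 2.17% higher and 2.21% lower over all recovered genes. Both contrasts cross the deposits and the RNA labels, from which the gates cannot be told apart.

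The contrasts among the first 4 libraries stayed within 1 deposit. HPC1 over HSC1 gave -1.25 for Ccl3, -0.03 for Ccl4 and -0.45 for Ccl9, so that 1 gene was lower by 2-fold or more, beside 1.88% higher and 2% lower in the background. Ccl3 rested on 5 counts in HPC1 and 96 in HSC1, of which 1 cell held 47.9%. Without the highest cell of each library its ratio was -0.81, and without the deepest 10% of cells -0.92, so the call did not hold with 10 CPM added. In CPM the level was 33.9-fold lower in HPC1, and without the highest cells it was 0.264 against 7.97 CPM; with 1 CPM added the ratio was -3.46. The MPP2-containing library over CD201-CD48- HSC1 and HPC1 gave 2.27 for Ccl3, 1.29 for Ccl4 and 2.50 for Ccl9, all 3 above 2-fold, beside 2.01% higher and 2.04% lower. For Ccl4 the ratio was 0.93 without the highest cells and 0.71 after thinning, so that its call was lost. These 2 libraries share the CD201-CD48- HPC1 gate.

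Within libraries, Ccl3 and Ccl4 were found together in part of the cells. In CD48+ HSC2/MPP4, 34 of the 39 cells with Ccl3 also had Ccl4 (87.2%), while Ccl4 was found in 20 of 42 cells without Ccl3 (47.6%). In CD48- HSC2 the shares were 65% of 20 cells with Ccl3 and 60.9% of 46 cells without it. All 3 chemokines were counted in 22 of 81 cells of CD48+ HSC2/MPP4 and none of them in 14, against 5 and 17 of 66 cells in CD48- HSC2. The overlap of Ccl3 with Ccl4 was thus large in CD48+ HSC2/MPP4 and about as large as among cells without Ccl3 in CD48- HSC2, and the difference between the libraries was not tested.

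Over cells, Pearson r between log2(counts per 10000 + 1) of Ccl3 and Ccl4 was 0.50 in CD48+ HSC2/MPP4 (n = 89 cells), 0.33 in CD48- HSC2 (n = 86) and 0.48 in the MPP2-containing library (n = 80). It was 0.25 in CD201-CD48- cells, -0.08 in HSC1 and -0.10 in HPC1. Ccl3 with Ccl9 gave 0.29, 0.35 and 0.48 in the same 3 libraries, and Ccl4 with Ccl9 gave 0.10, 0.26 and 0.50. Spearman's rho of thinned counts was lower in the MPP2-containing library, 0.20 to 0.35 for the 3 pairs, and higher for Ccl3 with Ccl4 in CD48+ HSC2/MPP4, at 0.64. Cells of a library share its preparation and differ in depth, whose own r with the 3 genes lay between -0.29 and 0.13.

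**Figure D3:**
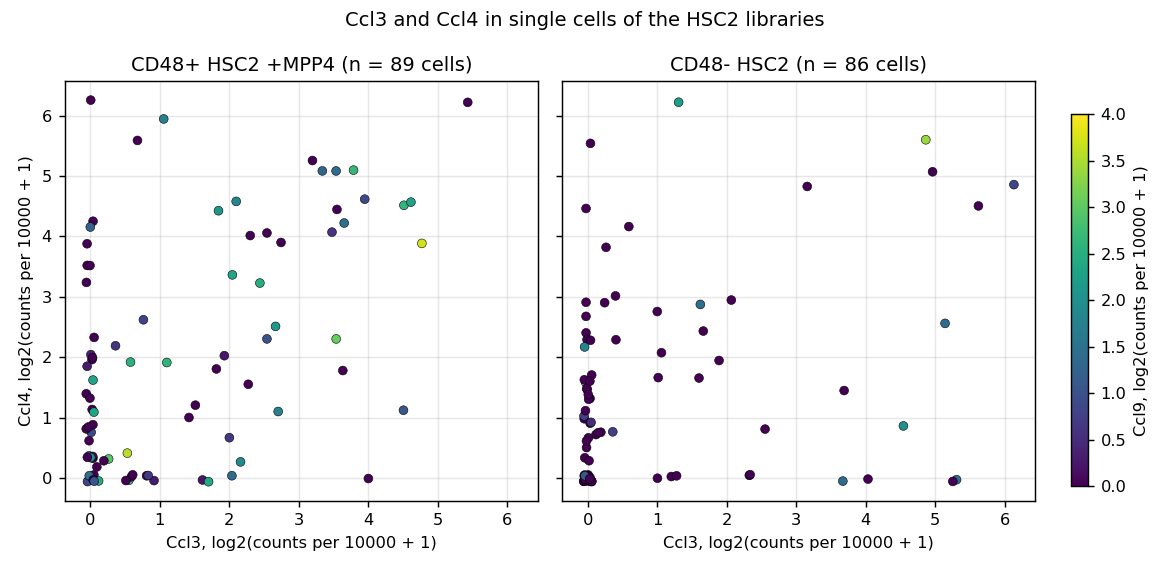
Each point is 1 cell of CD48+ HSC2/MPP4 (left, n = 89) or CD48- HSC2 (right, n = 86), with Ccl3 on the x axis and Ccl4 on the y axis, both as log2(counts per 10000 + 1), shifted slightly so that cells do not cover each other, and Ccl9 as colour. On the left most cells with Ccl3 also hold Ccl4 (r = 0.50), and on the right several of the highest Ccl3 cells hold no Ccl4 (r = 0.33).

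Other genes were followed over the cells of each library. Ccl4 went with Procr in the MPP2-containing library (r = 0.52) and in HPC1 (r = 0.48), and its r with Procr was 0.22 or less in the other 4 libraries. In HPC1 its r with the summed stem cell markers was 0.50, but that sum includes Procr. Ccl9 went with the summed granulocyte-monocyte progenitor markers, such as Mpo and Elane, in the MPP2-containing library (r = 0.55) and in CD48+ HSC2/MPP4 (r = 0.34), with r of 0.02 to 0.09 in the other 4 libraries. Ccl4 had r of 0.36 with the same markers in HPC1 and 0.24 in the MPP2-containing library. Those markers summed to 9367 CPM in CD48+ HSC2/MPP4, of which 1 cell held 54.0%, and to 393 to 1918 CPM in the other libraries. Ccl3 had an r between -0.10 and 0.08 with them in every library. The part of these markers in the Ccl9 levels was not tested. Summed lymphoid progenitor markers, such as Dntt and Flt3, had r of 0.42 with Ccl4 in HPC1 and 0.38 in the MPP2-containing library. In the other libraries it was 0.04 to 0.19. With Ccl3 their r was 0.36 in CD48- HSC2, 0.26 in the MPP2-containing library and 0.04 to 0.22 in the others. With Ccl9 it lay between -0.01 and 0.22. The part of the lymphoid markers was not tested either.

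Of the other cells that make these chemokines, macrophages and monocytes were followed with 17 markers, of which 15 were recovered. Their summed level was 659 CPM in CD48+ HSC2/MPP4 and 1482 CPM in CD48- HSC2, where 1 cell held 53.6%, and 687 to 1162 CPM in the first 4 libraries. Cd14 and Adgre1 were at 0 in CD48- HSC2 and Fcgr1 was at 0 in CD48+ HSC2/MPP4. Adgre1 was at 0 in HSC1 too, and Ccr2 was at 0 in the CD201-CD48- library. In the HSC2 libraries the r of each chemokine with this sum was between -0.04 and 0.14. In HSC1 it was 0.26 for Ccl3 and 0.28 for Ccl9, and in the CD201-CD48- library 0.22 for Ccl9. The remaining values in the first 4 libraries lay between -0.16 and 0.08. T and NK cell markers (5 recovered of 14) summed to 498 CPM in CD48+ HSC2/MPP4, of which 1 cell held 39.7%. They summed to 87.4 CPM in CD48- HSC2, against 91.9 to 441 CPM elsewhere. Klrd1 was at 0 in every library except CD48+ HSC2/MPP4. Mature neutrophil markers, all 11 recovered, summed to 5206 and 6593 CPM in the HSC2 libraries, of which 1 cell each held 98.8% and 95.6%. In the first 4 libraries they ran from 314 CPM in HSC1 to 4376 CPM in HPC1. There 1 cell held 33.9% and 73.0%.

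The other ligands were examined as a list of 21 CC chemokines, of which 9 were recovered and 12 have no row. Ccl2, Ccl6 and Ccl17, ligands known to attract monocytes or T cells, stayed at or below 5.35 CPM in every library. Ccl5, known to attract T cells and monocytes, was at 33.02 CPM in the MPP2-containing library, where 1 cell held 91.7% of it, and at 1.08 to 9.68 CPM elsewhere. Ccl25 was at 4.84 to 19.8 CPM and Ccl27a at 21.7 to 90.6 CPM, and both had their lowest level in CD48+ HSC2/MPP4. In CD48- HSC2 over CD201-CD48- HSC1 and HPC1, 3 of the 9 CC ligands were higher and 0 lower. The shares over all recovered genes were 4.31% and 2.72%. The 3 higher ligands were the chosen genes, so this count follows from the choice. In CD48+ HSC2/MPP4 over the MPP2-containing library the same 3 were higher while Ccl5 (-1.13) and Ccl25 (-1.004) were lower. Over all recovered genes 2.17% were higher and 2.21% lower there. Among 17 CXC, CX3C and XC ligands, 8 were recovered, and Pf4, the platelet factor of megakaryocytes, was the 1 that passed 2-fold in those 2 contrasts, at -2.11 and -5.38. Within the first deposit the MPP2-containing library had 4 CC ligands higher than the CD201-CD48- library and 0 lower. The shares over all recovered genes were 2.01% and 2.04%. The 4 were the 3 chosen genes and Ccl5 (1.5), of which 1 cell of the MPP2-containing library held 91.7%.

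Ccr1 and Ccr3 were scarcely counted. Ccr1, which binds Ccl3 and Ccl9, was at 0 in HSC1 and HPC1 and at most at 2.55 CPM (CD48+ HSC2/MPP4, 10 counts in 3 cells). Ccr3 was at 0.266 to 4.68 CPM. Of 10 recovered receptors of 24, Ccrl2, an atypical chemoattractant receptor, was higher in CD48- HSC2 than in the CD201-CD48- library (48.6 against 14.3 CPM, log2 ratio 1.27). Cxcr4, the receptor that retains stem cells in the marrow, was higher there as well (17.3 against 2.73 CPM, log2 ratio 1.1) and in CD48+ HSC2/MPP4 than in the MPP2-containing library (25.2 against 3.33 CPM, log2 ratio 1.40). With 10 CPM added, the remaining recovered receptors were within 2-fold in both contrasts. Over all recovered genes 4.31% were higher and 2.72% lower in the first, and 2.17% and 2.21% in the second. With 1 CPM added, 6 of the 10 receptors were higher and 2 lower in the first, beside 1757 and 1289 of 11965 recovered genes. In the second 5 were higher and 1 lower, beside 1215 and 1258 of the recovered genes.

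NF-kappaB and immediate early transcription factors are the classical activators of Ccl3 and Ccl4 in macrophages, and both sets were listed. In CD48- HSC2 over CD201-CD48- HSC1 and HPC1, 15 of 18 recovered immediate early genes were higher and 0 lower, beside 4.31% higher and 2.72% lower over all recovered genes, with a median log2 ratio of 1.62. Nr4a1, an orphan nuclear receptor, went from 7.69 to 394 CPM (4.51), Fos from 311 to 2212 CPM (2.79), Zfp36, which binds AU-rich mRNA and speeds its decay, from 56.5 to 429 CPM (2.72), and the phosphatase gene Dusp2 from 99.7 to 841 CPM (2.95). Of 23 recovered NF-kappaB genes 4 were higher, namely Nfkbiz (2.33), Tnfaip3 (1.6), Traf1 (1.37) and Ier3 (1.23). Tnfaip2 (-1.54) was the 1 lower gene, against the same 4.31% and 2.72%. The median of the 23 genes was 0.48. The immediate early genes were thus higher in the same library as the chemokines, and their part in that difference was not tested.

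Between the HSC2 libraries the immediate early genes leaned the other way, with 0 of 18 higher and 3 lower in CD48+ HSC2/MPP4, beside 1.87% and 3.31% over all recovered genes (Dusp2 -1.59, Dusp1 -1.12 and Nr4a2 -1.004) and a median of -0.70 beside -0.04 over all recovered genes. In this contrast Ccl4 had a ratio of 0.63 and Ccl9 of 2.29. Ccl3 had -0.30 on pooled counts and 0.34 as a difference of mean log2 values over cells. Among NF-kappaB genes Bcl3 was lower (-1.02). In CD48+ HSC2/MPP4 over the MPP2-containing library 6 immediate early genes were higher and 0 lower (median 0.71), beside 2.17% and 2.21% over all recovered genes, among them Atf3 (1.93), Dusp2 (1.68), Nr4a1 (1.67) and Zfp36 (1.40). NF-kappaB genes counted 3 higher, namely Rel (1.31), Nfkbiz (1.36) and Nfkbie (1.12), and 1 lower, Tnfaip2 (-2.81), of 23 and against the same shares. HPC1 over HSC1 gave 3 lower immediate early genes (Dusp2 -1.22, Junb -1.17 and Egr1 -1.08), beside 2% lower over all recovered genes. The MPP2-containing library over the CD201-CD48- library gave 4 higher ones (Nr4a1 2.04, Fos 1.73, Btg2 1.32 and Zfp36 1.12), beside 2.01% higher. Over cells, the summed immediate early genes had an r of 0.43 with Ccl4 and 0.34 with Ccl3 in CD48+ HSC2/MPP4, and of 0.16 and 0.20 in CD48- HSC2. With Ccl4 it was 0.34 in HSC1, 0.31 in the CD201-CD48- library, 0.28 in the MPP2-containing library and 0.16 in HPC1. With Ccl3 it was 0.19, 0.045, 0.091 and 0.005 in the same order. For Ccl9 it was -0.01 and 0.07 in the HSC2 libraries. The summed NF-kappaB genes had an r of 0.26 with Ccl3 and 0.27 with Ccl4 in CD48+ HSC2/MPP4, and of 0.10 and 0.11 in CD48- HSC2. In the first 4 libraries this r lay between -0.15 and 0.23 for both genes.

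**Figure D4:**
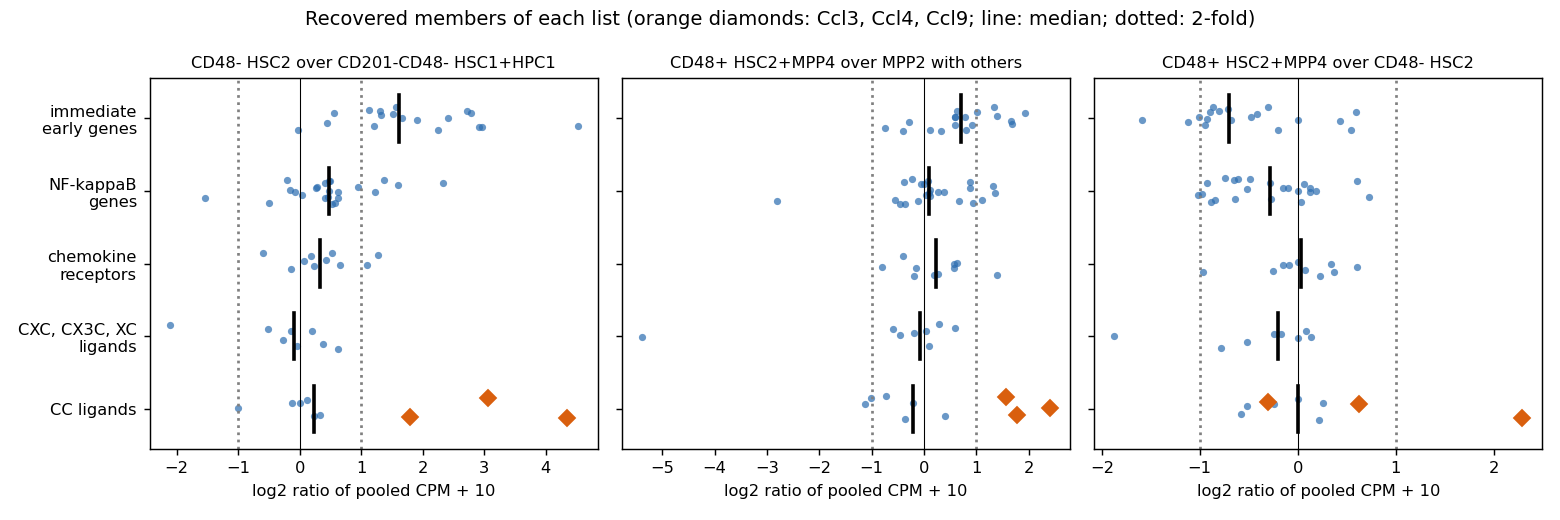
Log2 ratio of pooled CPM + 10 (x axis) for the recovered genes of 5 lists (rows) in 3 contrasts (panels), with Ccl3, Ccl4 and Ccl9 as orange diamonds, list medians as black lines and 2-fold as dotted lines. With 10 CPM added, the 3 chemokines are the only CC ligands right of the 2-fold line in the left and middle panels, and the median of the immediate early genes is 1.62, 0.71 and -0.70 from left to right.

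Promoters were read in RefSeq windows of 250 bases before to 50 bases after the gene start (GRCm38.p6), which were at hand for Ccl3 and Ccl9. The motifs searched on both strands were the kappaB consensus, the AP-1 site TGANTCA and the GAS site of STAT factors. The kappaB consensus is found in 8.46% of 32851 windows, AP-1 in 7.81% and GAS in 8.30%, and no match overlapped another in the Ccl9 window. The Ccl9 window held 1 AP-1 match 53 to 47 bases before the start and 1 kappaB match 35 to 26 bases before it, on the other strand, and the Ccl3 window held none of the 3 motifs. The last 100 bases before each start are shown on the gene's strand, chr11:83649379-83649478 (minus strand) for Ccl3 and chr11:83578637-83578736 (minus strand) for Ccl9, with the matches in capitals.
Ccl3: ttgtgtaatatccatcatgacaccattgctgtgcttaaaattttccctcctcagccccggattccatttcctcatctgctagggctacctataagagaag
Ccl9: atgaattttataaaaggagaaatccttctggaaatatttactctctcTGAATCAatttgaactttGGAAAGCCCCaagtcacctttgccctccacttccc

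Genes with the most similar pattern were named by a fixed measure. Over the 6 libraries, the root mean square distance of centred log2(CPM + 10) among 11529 genes was smallest to Ccl3 for Nr4a1 (0.69), Flt3 (0.70), Wfdc17 (0.70), Fos (0.74) and Cd69 (0.78). For Ccl4 these were Zfp36 (0.39), Rasa4 (0.45), Cd52 (0.47), Rgs2 (0.50) and Wfdc18 (0.53), and for Ccl9 they were Clec12a (0.46), BC035044 (0.46), Lgals1 (0.49), Tyrobp (0.52) and Cd52 (0.55). Over the cells of the HSC2 libraries, where 4235 genes were counted in 25% of cells or more of each library, the mean of both r was highest for Ccl3 with Ccl4 (0.42), Stk17b (0.36), Cdk7 (0.32), Fos (0.30) and Csnk1d (0.29). Ccl9, counted in 17.4% of CD48- HSC2 cells, was not among the genes compared, and its mean r with Ccl3 was 0.32. Ccl4 was closest to Ccl3 (0.42), Fos (0.32), Tsc22d1 (0.29), Fam107b (0.28) and Nkx2-3 (0.28), and Ccl9 to Ccl3 (0.32), Fbxo7 (0.28), Drg2 (0.28), Lamtor4 (0.28) and Pdlim2 (0.27). The r of these closest genes were picked as the highest of many, and those below 0.4 are weak. Among these 4235 genes, Ccl3 and Ccl4 were each other's closest gene by the mean of both r. In CD48- HSC2 alone, Ccl3 had a higher r with Cdk7 (0.46), Csnk1d (0.40) and Stk17b (0.36) than with Ccl4 (0.33).

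Wfdc17 and Wfdc18, genes of small secreted proteins with a WAP domain, are neighbours of the chemokines on chromosome 11. Wfdc17 (chr11:83703991-83706268, plus strand) starts 54.6 kb and Wfdc18 (chr11:83709015-83711348, plus strand) 59.7 kb from the start of Ccl3. Their position was noticed after their values had been seen. Wfdc17 was at 7.89, 73.7, 3.22 and 56.3 CPM in the CD201-CD48-, HSC1, HPC1 and MPP2-containing libraries, at 319 CPM in CD48+ HSC2/MPP4 and at 220 CPM in CD48- HSC2. It was thus highest in the HSC2 libraries and lowest in HPC1, as Ccl3 was, and 60.5% and 66.9% of its counts in HSC1 and the MPP2-containing library came from 1 cell each. Over cells its r with Ccl3 was 0.35 in CD48- HSC2, 0.21 in CD48+ HSC2/MPP4 and 0.48 in the MPP2-containing library. In HSC1 this r was 0.24, in HPC1 -0.03 and in the CD201-CD48- library -0.07. Wfdc18 was at 36.7 CPM in CD48+ HSC2/MPP4 (24 of 89 cells) and 17.6 CPM in CD48- HSC2 (4 of 86 cells), at 3.08 and 3.20 CPM in HSC1 and the MPP2-containing library, and at 0 in the CD201-CD48- and HPC1 libraries. Its r with Ccl3 was -0.02 in CD48+ HSC2/MPP4, -0.03 in CD48- HSC2, -0.06 in HSC1 and 0.29 in the MPP2-containing library.

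Apart from Ccl3, Ccl4, Wfdc17 and Wfdc18, no recovered gene of the region had its highest levels in both HSC2 libraries. Ccl6, whose start lies between those of Ccl9 and Ccl3, was at 0.871 to 5.35 CPM in all 6 libraries. Wfdc21 was highest in HPC1 (186 CPM, of which 1 cell held 89.1%), and Heatr6 was at 47.3 to 84.1 CPM. Within 300 kb of the Ccl3 start GENCODE lists 18 protein-coding genes, of which 13 were recovered and 5 have no row.

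**Figure D5:**
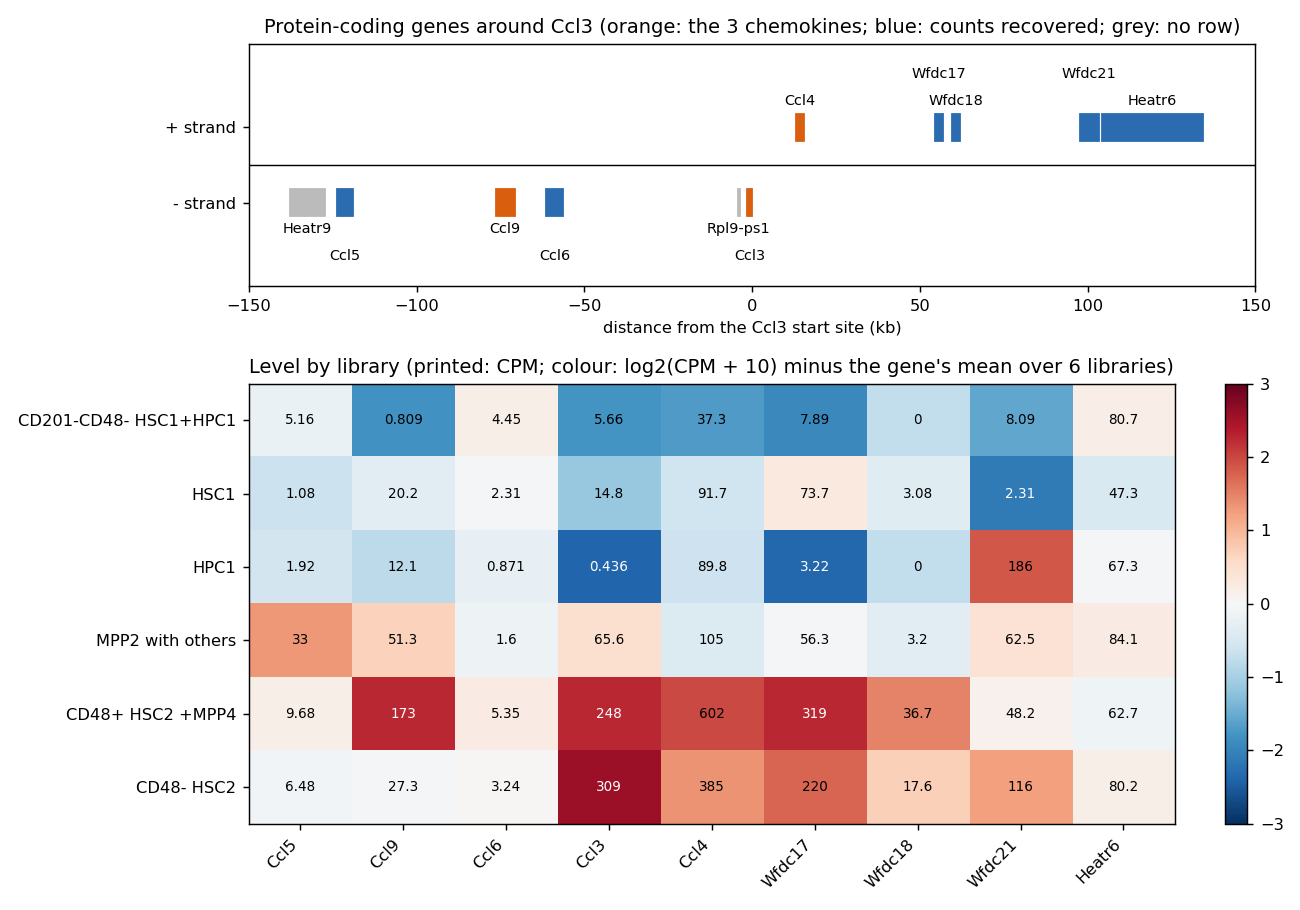
Top, protein-coding genes within 150 kb of the Ccl3 start site, to scale by distance in kb (x axis) and strand (y axis). Bottom, the recovered genes in the same order (columns, not to scale) by library (rows), with the printed level in CPM and log2(CPM + 10) minus the gene's mean as colour: Ccl3, Ccl4, Wfdc17 and Wfdc18 are highest in the 2 HSC2 libraries, while Ccl6, which lies between Ccl9 and Ccl3, stays at 0.871 to 5.35 CPM.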

How the data were processed

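Single cells were prepared with a modified Smart-seq2 method that keeps the 3' ends, per the labels' protocols. The submitters' processing notes name TopHat, HTSeq and mm10, without versions. The values deposited by the authors are scores: per gene they have mean 0 and SD 1 over the 497 cells, after a regression on 4 cell covariates and with a cap of 10. The 2 HSC2 tables carry no gene names and were joined line by line after 6 blank lines were dropped. In that order the mean over all cells is within 1.1e-10 of 0 for each of 9901 uncapped genes, and with lines shifted by 1 its median size is 0.0312.

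Counts were recovered by undoing the regression and scaling (python 3.11.15, numpy 2.4.6, scipy 1.17.1). Of 1983416 recovered values up to 50, 100% were whole within 0.01. Of 13278 genes, 218 and 1095 were not recovered, for want of a plane of cells without the gene and of enough cells with it, and recovered genes make up 49.2 to 79.2% of the counts of a cell, with a median of 58.9%. The recovery was tested on simulated data. CPM are pooled counts over all cells and use the full totals. Cells under 10000 counts, 20 in CD48- HSC2, 8 in CD48+ HSC2/MPP4 and 0 to 4 elsewhere, were left out of thinned shares. Doublet treatment is not given in the sources used here, no caller was run, and whether counts are reads or molecules is not stated. Barcode sequences were not used here. The 3 genes, the lists and the rule for named genes (list members past 2-fold, the receptors Ccr1 and Ccr3, and the 5 nearest genes) were chosen with earlier results of these data known. One item of that rule is not reported here.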

Additional observations from a re-analysis of the deposited data

How the results depend on the processing

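The 5 contrasts are lettered here as A (CD48- HSC2 over CD201-CD48- HSC1 and HPC1), B (CD48+ HSC2/MPP4 over the MPP2-containing library), C (the MPP2-containing over the CD201-CD48- library), D (HPC1 over HSC1) and E (CD48+ HSC2/MPP4 over CD48- HSC2). In contrasts A, B and C all 3 genes stayed positive under the 7 alternatives run. Values that moved beyond their counting interval follow. With 1 CPM added, Ccl3 gave 5.54 (A), 1.91 (B), 3.32 (C), -3.46 (D), Ccl4 gave 3.33 (A), 2.50 (B), 1.47 (C) and Ccl9 gave 3.97 (A), 1.73 (B), 4.85 (C), -0.69 (D), 2.62 (E). After thinning to 10000 counts, Ccl3 gave 4.54 (A), 2.11 (B), 1.85 (C), -1 (D), -0.58 (E), Ccl4 gave 3.31 (A), 3.20 (B), 0.71 (C), 0.13 (D) and Ccl9 gave 2.44 (A), 1.86 (B), 1.99 (C), 0.059 (D), 1.41 (E). With the mean of per-cell CPM, Ccl3 gave 4.80 (A), 2.26 (B), Ccl4 gave 3.04 (B), 0.75 (C), 0.78 (E) and Ccl9 gave 2.22 (A), 2.26 (C), 1.59 (E). Without the deepest 10% of cells, Ccl3 gave 4.63 (A), 2.05 (B), -0.92 (D), Ccl4 gave 2.96 (B), 0.74 (C) and Ccl9 gave 2.26 (A), 1.86 (B), 2.16 (C), 1.76 (E). Without the highest cell of the gene in each library, Ccl3 gave 2.20 (B), 1.88 (C), -0.81 (D), Ccl4 gave 2.89 (A), 2.70 (B), 0.93 (C), 0.74 (E) and Ccl9 gave 1.52 (A), 2.19 (C), -0.83 (D). As a difference of mean log2(counts per 10000 + 1), Ccl3 gave 0.91 (A), 0.997 (B), 0.25 (C), -0.13 (D), 0.34 (E), Ccl4 gave 0.93 (A), 1.41 (B), 0.12 (C) and Ccl9 gave 0.25 (A), 0.58 (B), 0.27 (C), -0.11 (D), 0.60 (E). As a difference of mean deposited score, Ccl3 gave 0.63 (A), 0.62 (B), 0.34 (C), 0.0035 (D), 0.33 (E), Ccl4 gave 0.45 (A), 0.68 (B), 0.24 (C), 0.16 (D), 0.46 (E) and Ccl9 gave 0.27 (A), 0.67 (B), 0.45 (C), -0.093 (D), 0.85 (E). The last 2 measures are on scales of their own, so their sizes are not comparable with the log2 ratios, and on the score scale Ccl3 in contrast D turned from lower to 0.0035. Between the HSC2 libraries Ccl3 changed sign on both of those scales, and in contrast D Ccl4 and Ccl9 turned positive after thinning. The causes of these shifts were not tested. With 1 CPM added, the genes past 2-fold rose from 516 to 1757 higher and from 325 to 1289 lower over all recovered genes in contrast A, and from 224 to 1052 and from 396 to 1626 in contrast E. In contrast B they rose from 260 to 1215 and from 264 to 1258. Immediate early genes then counted 16 in place of 15 higher in contrast A and 8 in place of 6 in contrast B. NF-kappaB genes counted 8 in place of 4 and 6 in place of 3 higher, and CC ligands 4 in place of 3 in both. In contrast B 2 in place of 0 immediate early genes, 3 in place of 1 NF-kappaB genes and 4 in place of 2 CC ligands were lower. In contrast A 1 in place of 0 CC ligands was lower, and the other 2 lists kept 0 and 1. In contrast E 8 in place of 1 NF-kappaB genes were then lower and 2 in place of 0 higher. In contrast C 7 in place of 4 CC ligands were higher and 1 in place of 0 lower. Immediate early genes there counted 8 in place of 4 higher. NF-kappaB genes counted 4 in place of 0 higher and 1 in place of 0 lower. Over all recovered genes contrast C rose from 241 to 1230 higher and from 244 to 1263 lower. Counts under 3 per library, 0.2 to 1.08 CPM, could not be told from 0. Leaving out a replicate was not possible with 1 library per group. No paired analysis was possible because each group is 1 library.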
